A study of Homo sapiens with 9 samples.

Results

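Long non-coding RNA (lncRNA) genes, 10 in number, with a described role in cancer were followed across control and treated PC-3 cells: MALAT1, NEAT1, HOTAIR, PCAT1, PVT1, GAS5, SNHG1, HULC, UCA1 and CYTOR. These 10 genes were chosen by name and were identified through their Ensembl identifiers among the 60617 gene identifiers of the count files, of which 16739 are annotated as lncRNA genes. PC-3 cells, an established line from a human prostate cancer metastasis, grow without androgen. The 9 RNA-seq libraries comprised 3 controls, 3 libraries of cells given 1 µM of decitabine and 3 libraries of cells given 1 µM of decitabine together with 200 µM of S-adenosylmethionine (SAM). According to the study's methods, control cells received the vehicle and the medium of all cells was changed every other day. Treatment lasted 5 days per the labels. Decitabine is a cytidine analogue that traps DNA methyltransferases and so lowers DNA methylation, whereas SAM is the methyl donor of these enzymes. All samples derive from 1 cell line, libraries of cells given SAM alone were not analysed here, and the labels do not state whether the replicates were separate cultures, so p-values measure the spread between these samples, which may be technical.

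LncRNAs are transcripts longer than most small RNAs that are not translated into known proteins, and they act in several ways. NEAT1 is the scaffold of nuclear bodies called paraspeckles, and MALAT1 accumulates in the neighbouring nuclear speckles, where splicing factors are stored. GAS5 and SNHG1 are host genes of small nucleolar RNAs (snoRNAs), which are cut from their introns and guide the chemical modification of ribosomal RNA, while the spliced host RNA is short-lived. HOTAIR is transcribed from the HOXC gene cluster and has been described to bind chromatin-modifying complexes. PCAT1 and PVT1 lie on either side of MYC, and HULC, UCA1 and CYTOR are known as RNAs that are raised in liver, bladder and gastrointestinal tumours.

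All 10 genes passed the filter on low counts. With decitabine, GAS5, SNHG1 and NEAT1 were downregulated and CYTOR was upregulated. With the combination treatment, PCAT1 was downregulated in addition to these 4 genes. Set against decitabine alone, the combination treatment gave lower NEAT1 and higher SNHG1. MALAT1, HOTAIR, HULC, UCA1 and PVT1 were not called in any of the 3 comparisons. Calls were made with edgeR's quasi-likelihood test at an adjusted p-value under 0.05, with Benjamini-Hochberg adjustment over the 18532 genes tested. Decitabine against control thus called 4 of the 10 genes (1 higher, 3 lower), where 68.8% of all genes were called, 36.3% as higher and 32.5% as lower. The combination treatment against control called 5 of 10 (1 higher, 4 lower) against 67.2% of all genes, 35.9% as higher and 31.3% as lower. The combination treatment against decitabine called 2 of 10 (1 higher, 1 lower) against 15.7% of all genes, 7.67% as higher and 8.02% as lower.

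The 10 genes were read beside all lncRNA genes. Of 2993 lncRNA genes tested, decitabine called 60.0%, with 47.0% (1408 genes) higher and 13% (388 genes) lower. The median lncRNA log2 fold change was 0.62, whereas the median of the 10 genes was -0.18 and that of all genes tested 0.03. With the combination treatment the medians were 0.48 for lncRNA genes, -0.27 for the 10 genes and 0.05 for all genes. Here 56.5% of lncRNA genes were called, 40.5% as higher and 15.9% as lower. Between the treatments the medians were -0.17, -0.15 and 0.00, and 10.1% of lncRNA genes were called, 1.77% as higher and 8.29% as lower. That last count of 301 lncRNA genes ranged from 79 (without combination replicate 2) to 409 (without combination replicate 3) when 1 library was left out. Genes with few control counts could pass the filter through the treated libraries, so these shares and medians are descriptions, and their difference was not tested. When libraries were scaled by total counts alone, the median over all genes was 0.28 in the decitabine comparison and 0.27 in that of the combination treatment. Under that scaling decitabine called 3 of the 10 genes as higher (HOTAIR, HULC and CYTOR) and 2 as lower (GAS5 and SNHG1). Of all 18532 genes it called 8849 as higher and 3746 as lower. All directions below are therefore relative to the bulk of the transcriptome.

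**Figure D1:**
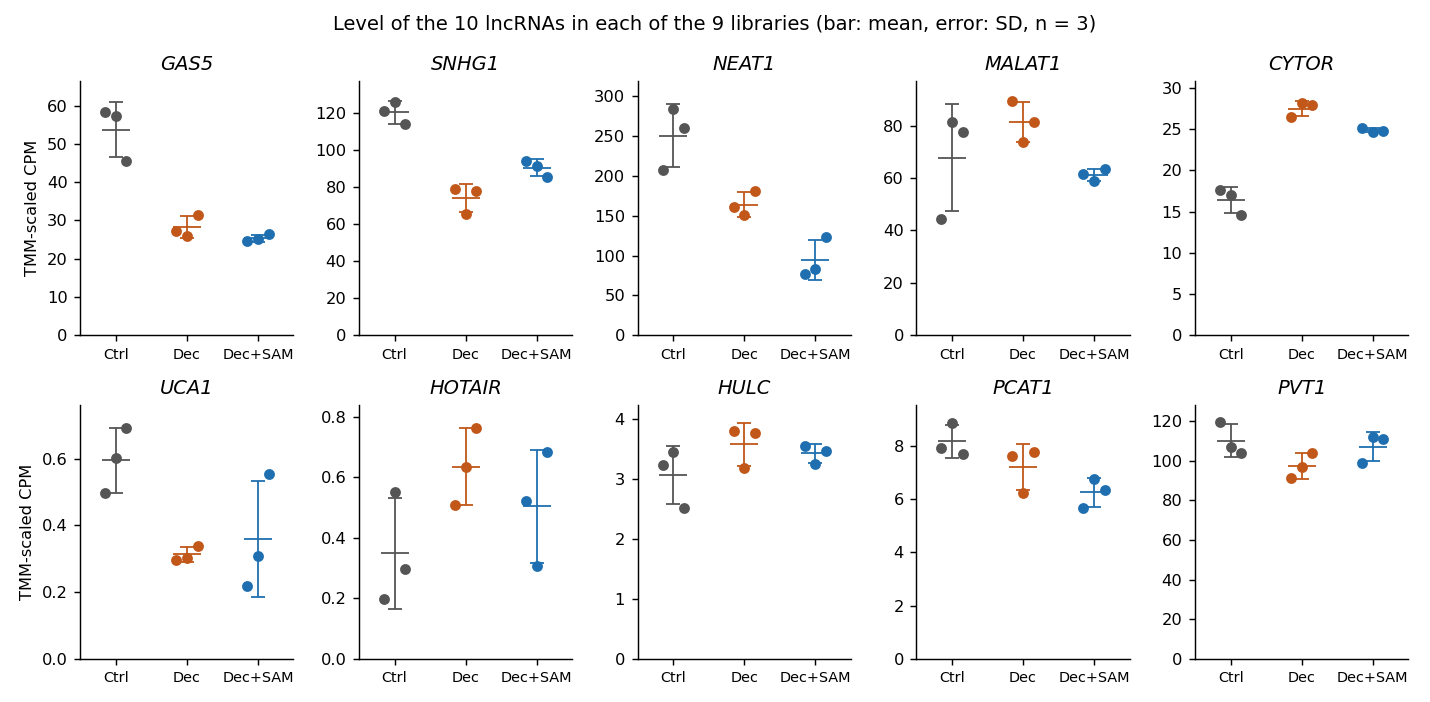
Level of each of the 10 lncRNAs in CPM, counts relative to the TMM-scaled library total (vertical axes, from 0) in control, decitabine-treated and combination-treated libraries (horizontal axes). Points are single libraries and bars are means with the SD of 3 libraries. GAS5, SNHG1 and NEAT1 lie lower and CYTOR higher in all 6 treated libraries than in any control, and control replicate 1 has the lowest MALAT1 value of all 9 libraries (44.3).

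**Figure D2:**
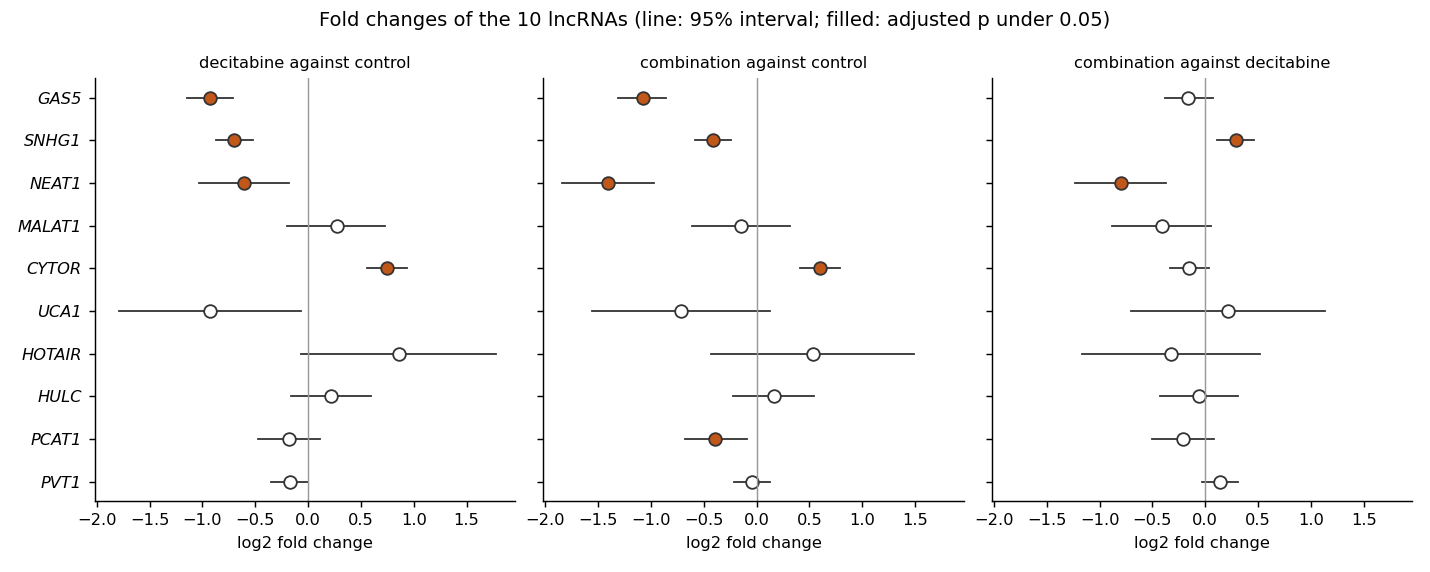
Log2 fold changes (horizontal axes) of the 10 lncRNAs in the 3 comparisons, with 95% intervals from edgeR's quasi-likelihood fit. Filled points have an adjusted p-value under 0.05. GAS5, SNHG1, NEAT1 and CYTOR are filled against the controls with both treatments, and NEAT1 (-0.80) and SNHG1 (0.29) between the treatments.

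Depth was nearly equal, at 21934307 to 22489684 counts in each library. TMM scaling factors, which set the bulk of genes level between libraries, were 0.895 to 0.902 in the controls and 1.033 to 1.078 in the treated libraries. Mitochondrially encoded genes took up 3.78% to 4.73% of control counts. Their share was 1.55% to 2.20% in decitabine libraries and 2.43% to 3.79% in combination libraries. The part of this shift in the results was not tested. The epithelial keratins KRT8, KRT18 and KRT19 were at 107 CPM or more in every library, whereas KLK3, which encodes prostate-specific antigen, had 0 counts in every library. In bulk RNA, fewer cells with a transcript and less transcript per cell cannot be told apart.

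GAS5 and SNHG1, the snoRNA hosts, fell with both treatments. GAS5 (ENSG00000234741, GRCh38 chromosome 1, 173858559 to 173868882, minus strand) was first described as a transcript that accumulates when growth arrests. Its level was 58.3, 57.2 and 45.5 CPM in the 3 controls. With decitabine it was 27.2, 26.0 and 31.4 CPM, and with the combination treatment 24.6, 25.1 and 26.3 CPM. No treated library reached the lowest control, and the libraries of the 2 treatments overlapped. The log2 fold change was -0.93 (standard error 0.10, adjusted p = 1.9e-06) with decitabine and -1.08 (0.10, adjusted p = 4.7e-07) with the combination treatment, both by edgeR. Between the treatments the log2 difference was -0.16, with a 95% interval of -0.38 to 0.07 (adjusted p = 0.33). Both calls against the controls held in each of the 9 fits that left out 1 library, in which decitabine gave log2 fold changes of -1.05 to -0.87 and the combination treatment gave -1.20 to -1.03.

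SNHG1 (ENSG00000255717, chromosome 11, 62851978 to 62855953, minus strand) overlaps 7 annotated snoRNA genes on its strand, all with 0 counts in the files. The level of the host RNA was 121, 126 and 114 CPM in the controls, 79.0, 65.5 and 78.0 CPM with decitabine, and 94.2, 91.6 and 85.6 CPM with the combination treatment. The 3 groups did not overlap, and the combination libraries lay between the others. The log2 fold change was -0.70 (standard error 0.08, adjusted p = 3.3e-06) with decitabine and -0.41 (0.08, adjusted p = 0.00042) with the combination treatment. The combination treatment exceeded decitabine by 0.29 on the log2 scale (95% interval 0.11 to 0.46, adjusted p = 0.03). This last call was lost without decitabine replicate 2 (0.20), without combination replicate 1 (0.25) or 2 (0.28), and when only the 6 libraries compared were fitted (0.28, adjusted p = 0.059).

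The start regions of these 2 genes are shown for their CpG content, and a part of methylation there in their fall was not tested. RefSeq windows of 300 bases on GRCh38.p14, from 250 before to 50 after the annotated start, were available for 4 of the 10 genes (GAS5, SNHG1, MALAT1 and CYTOR). CpG dinucleotides, which read CG on both strands, are in capitals. The SNHG1 window is chr11:62855836-62856135 and the GAS5 window chr1:173868996-173869295, both on the minus strand. The RefSeq start of GAS5 used here lies upstream of the 5′ end of the gene in GENCODE release 44.
SNHG1: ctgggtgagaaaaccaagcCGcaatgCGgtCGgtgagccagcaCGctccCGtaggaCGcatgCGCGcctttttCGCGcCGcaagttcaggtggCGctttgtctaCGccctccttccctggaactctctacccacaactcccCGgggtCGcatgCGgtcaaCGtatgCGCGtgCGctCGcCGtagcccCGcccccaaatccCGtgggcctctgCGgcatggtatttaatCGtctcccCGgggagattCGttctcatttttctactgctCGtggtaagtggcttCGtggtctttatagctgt
GAS5: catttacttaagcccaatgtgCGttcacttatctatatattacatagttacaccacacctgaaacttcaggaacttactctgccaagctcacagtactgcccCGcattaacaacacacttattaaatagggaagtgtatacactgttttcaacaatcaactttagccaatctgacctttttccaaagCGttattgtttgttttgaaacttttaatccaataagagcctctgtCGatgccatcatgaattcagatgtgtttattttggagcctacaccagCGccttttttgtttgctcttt
The SNHG1 window held 30 CpG dinucleotides and the GAS5 window 5. Of the 35116 windows in the RefSeq table, 22.4% held at least 30 and 70.4% at least 5, with a median of 14. The 2 annotated starts of MALAT1 had 37 and 14, and that of CYTOR had 5. These are descriptions of letters in a window, and no methylation value was analysed here.

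GAS5 and SNHG1 were read beside 24 other snoRNA host lncRNAs, chosen by name. All 26 were tested. With decitabine 20 were downregulated and 2 upregulated (median log2 fold change -0.61). With the combination treatment 18 were downregulated and 2 upregulated (median -0.48), where 31.3% of all genes were lower and 35.9% higher. Scaling by total counts alone gave 14 lower and 4 higher with decitabine, and 13 lower and 5 higher with the combination treatment. Of all 18532 genes, that scaling called 3746 as lower and 8849 as higher with decitabine, and 3857 and 8695 with the combination treatment. The largest changes with decitabine were in DANCR (-2.21), SNHG19 (-1.44) and SNHG21 (-1.21), and with the combination treatment in SNHG9 (1.66), DANCR (-1.58) and SNHG21 (-1.29). GAS5 ranked close to SNHG4 and EPB41L4A-AS1, which fell by 0.98 and 0.90 on the log2 scale with decitabine. Between the treatments 8 of the 26 were higher with the combination treatment and 0 lower, with a median difference of 0.14. Over all genes 7.67% were higher and 8.02% lower. SNHG1 was 1 of these 8, led by SNHG9 (0.82), SNHG5 (0.66) and SNHG30 (0.64), and GAS5 was not. Without combination replicate 2 the count was 4, without decitabine replicate 2 it was 3, and without decitabine replicate 1 or combination replicate 1 it was 5.

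**Figure D3:**
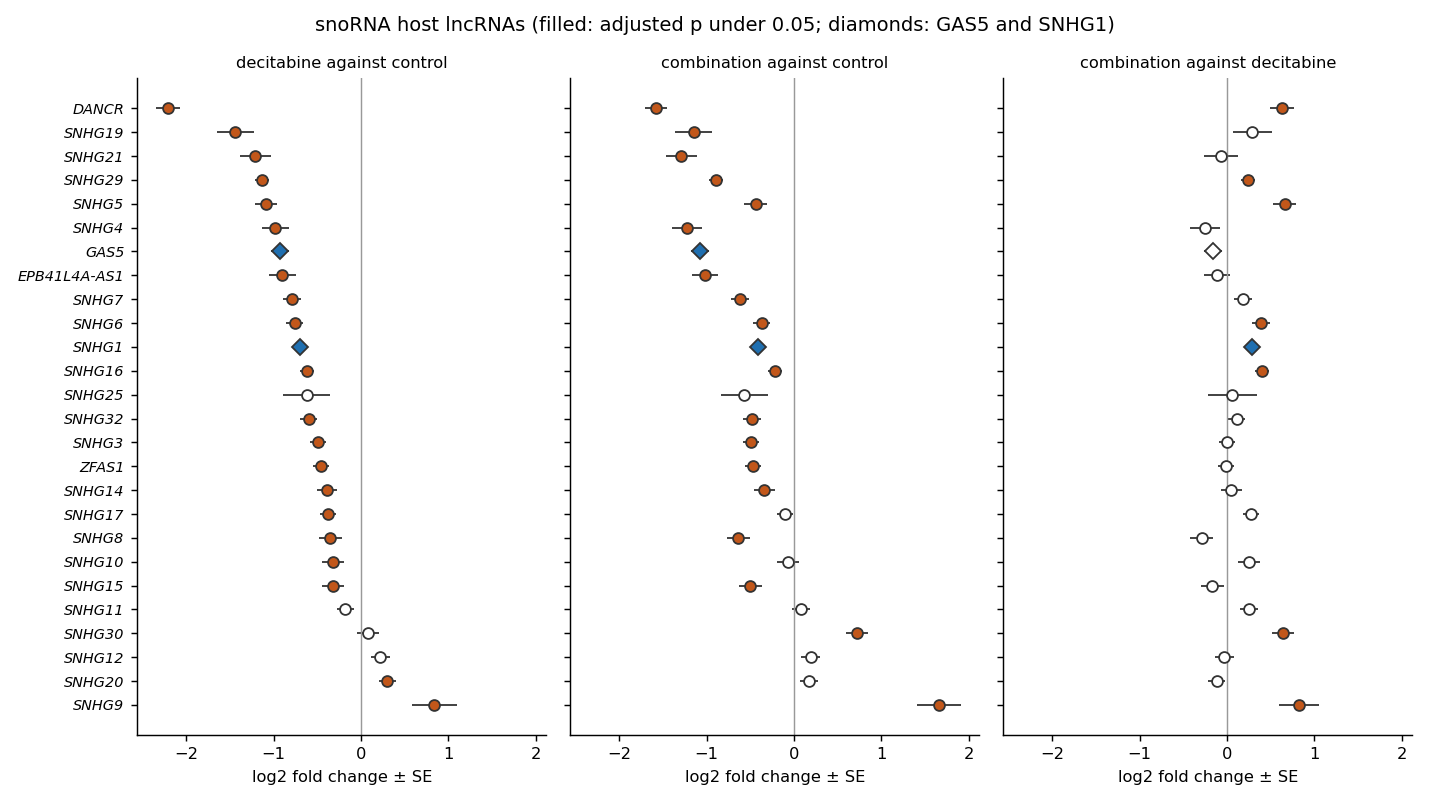
Log2 fold changes with standard errors (horizontal axes) of 26 snoRNA host lncRNAs, ordered by their value with decitabine. Filled symbols have an adjusted p-value under 0.05, and GAS5 and SNHG1 are diamonds. Most symbols lie left of 0 against the controls, and every filled symbol of the comparison between the treatments lies right of 0.

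NEAT1 (ENSG00000245532, chromosome 11, 65422774 to 65445540, plus strand) changed most among the 10 genes with the combination treatment. Its level was 207, 284 and 260.5 CPM in the controls. With decitabine it was 161, 150.4 and 181 CPM, and with the combination treatment 76.6, 83.3 and 123 CPM. The 3 groups were ordered without overlap, and combination replicate 3 lay closest to the decitabine libraries. The log2 fold change was -0.61 (standard error 0.19, adjusted p = 0.017) with decitabine and -1.41 (0.19, adjusted p = 0.00017) with the combination treatment, to 0.377 of the control level. The treatments differed by -0.80 (95% interval -1.23 to -0.37, adjusted p = 0.025). The call with the combination treatment against the controls held in each of 9 fits without 1 library. With decitabine it was lost without decitabine replicate 1 (-0.60) or 2 (-0.55) and with scaling by total counts alone (-0.36, adjusted p = 0.15). Between the treatments it was lost without any 1 of the 3 decitabine libraries or without combination replicate 1 or 2, with values of -1.04 to -0.67 over the 9 fits.

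The proteins that build paraspeckles on NEAT1 were read from a list of 20 genes, all tested. With decitabine 19 were downregulated and 0 upregulated, with a median log2 fold change of -0.67. Over all genes 32.5% were lower and 36.3% higher. Scaling by total counts alone gave 19 lower and 1 higher in this list (median -0.43), and 3746 lower and 8849 higher of all 18532 genes. The essential paraspeckle proteins SFPQ and NONO fell by 0.67 and 0.63 on the log2 scale, and PSPC1 had a value of 0.10 (adjusted p = 0.3). The largest changes were in HNRNPA1 (-1.20), SMARCA4 (-1.20) and RBM14 (-1.11). With the combination treatment 19 were downregulated and PSPC1 was upregulated (0.23), with a median of -0.74, and RBM3 (-1.55), TAF15 (-1.42) and HNRNPA1 (-1.29) led. Over all genes 31.3% were lower and 35.9% higher. Scaling by total counts alone gave 18 lower and 1 higher in this list (median -0.52), and 3857 lower and 8695 higher of all 18532 genes. Between the treatments only RBM3 (-0.51) and TAF15 (-0.74) were called among the 20, both lower with the combination treatment. The median of the 20 was 0.03. Of all genes 15.7% were called in that comparison, 8.02% as lower and 7.67% as higher.

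MALAT1 (ENSG00000251562, chromosome 11, 65497640 to 65508073, plus strand) lies beside NEAT1. Its level was 44.3, 81.5 and 77.6 CPM in the controls, so control replicate 1 stood apart. With decitabine it was 89.3, 73.9 and 81.4 CPM, and with the combination treatment 61.4, 58.7 and 63.5 CPM. The combination libraries did not overlap those of decitabine, whereas both treatments overlapped the controls. No comparison was called. The log2 fold change was 0.27 (95% interval -0.20 to 0.73, adjusted p = 0.27) with decitabine, -0.15 (-0.61 to 0.32, adjusted p = 0.54) with the combination treatment and -0.41 (-0.88 to 0.05, adjusted p = 0.21) between the treatments. For the 2 comparisons of the combination treatment this depended on control replicate 1. Without it the values were 0.03 (adjusted p = 0.81), -0.39 (adjusted p = 0.0019) and -0.41 (adjusted p = 0.0064), so that MALAT1 was called as lower with the combination treatment in both comparisons. Decitabine against control stayed uncalled, and the value between the treatments did not move. Each of those 2 calls was made in only 1 of the 9 fits that left out 1 library. NEAT1 was also lowest among the controls in that library. Of the stretches of 31 bases, the default word length of kallisto, in annotated MALAT1 transcripts, 67.3% also lie in the antisense gene TALAM1, for which the files have no row. Whether the library kept strand is not stated, so sense and antisense reads cannot be told apart.

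CYTOR (ENSG00000222041, chromosome 2, 87454781 to 87636740, plus strand) was the gene among the 10 that was upregulated. Its level was 17.6, 17.0 and 14.6 CPM in the controls, 26.5, 28.2 and 27.9 CPM with decitabine, and 25.2, 24.7 and 24.8 CPM with the combination treatment. Every treated library lay above every control, and every decitabine library above every combination library. CYTOR rose by 0.75 on the log2 scale (standard error 0.09, adjusted p = 3.9e-06) with decitabine and 0.60 (0.09, adjusted p = 3.4e-05) with the combination treatment. Both calls held in each of 9 fits without 1 library. The difference of -0.15 between the treatments was not called (95% interval -0.33 to 0.04, adjusted p = 0.27).

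CYTOR has a near-identical copy, MIR4435-2HG, elsewhere on chromosome 2, and 61.9% of its stretches of 31 bases occur in transcripts of that copy. The RefSeq start windows of both genes are shown to make this visible, with the stretch of 241 bases that they share without a mismatch in capitals. The windows are chr2:87455177-87455476 on the plus strand and chr2:111495112-111495411 on the minus strand of GRCh38.p14.
CYTOR: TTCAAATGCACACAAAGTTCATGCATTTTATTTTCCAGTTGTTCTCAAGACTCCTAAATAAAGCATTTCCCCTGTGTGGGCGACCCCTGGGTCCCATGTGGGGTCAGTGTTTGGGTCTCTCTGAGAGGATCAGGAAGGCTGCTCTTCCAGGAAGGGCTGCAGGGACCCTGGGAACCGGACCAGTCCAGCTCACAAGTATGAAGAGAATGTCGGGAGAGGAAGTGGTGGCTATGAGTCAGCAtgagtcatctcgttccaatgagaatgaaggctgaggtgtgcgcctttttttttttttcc
MIR4435-2HG: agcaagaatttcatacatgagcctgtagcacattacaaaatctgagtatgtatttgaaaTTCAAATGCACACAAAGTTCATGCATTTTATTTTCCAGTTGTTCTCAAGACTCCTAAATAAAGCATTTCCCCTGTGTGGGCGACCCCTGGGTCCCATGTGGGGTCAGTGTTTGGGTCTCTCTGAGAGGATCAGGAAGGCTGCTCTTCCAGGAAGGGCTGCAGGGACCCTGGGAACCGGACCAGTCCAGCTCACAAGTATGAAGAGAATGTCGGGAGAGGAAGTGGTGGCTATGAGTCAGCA
MIR4435-2HG was assigned more counts than CYTOR in every library. It had 47.3, 50.9 and 48.0 CPM in the controls, 73.4, 82.0 and 85.5 CPM with decitabine, and 76.2, 77.5 and 76.8 CPM with the combination treatment. Its log2 fold changes were 0.72 and 0.66 against the controls and -0.06 between the treatments. CYTOR took up 23.3% to 27.1% of the counts of the pair over the 9 libraries. Because reads of shared sequence are divided by estimation, the value of either gene alone is uncertain. Added together as 1 gene, the pair rose by 0.73 (adjusted p = 4.3e-07) with decitabine and 0.64 (adjusted p = 1.5e-06) with the combination treatment, and differed by -0.08 (adjusted p = 0.43) between them.

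**Figure D4:**
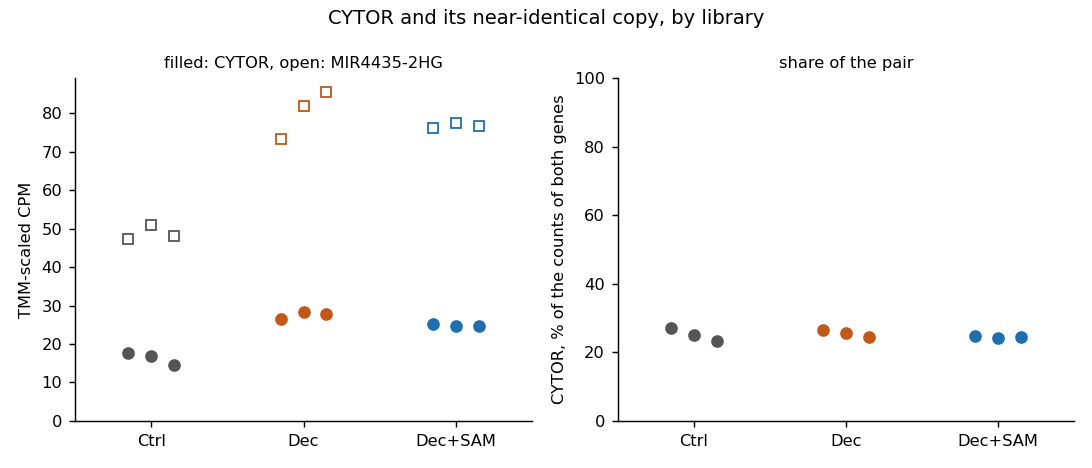
Level of CYTOR (filled circles) and MIR4435-2HG (open squares) in TMM-scaled CPM in each library (left), and the share of CYTOR in the estimated counts of both genes in percent (right). Both genes are higher in the 6 treated libraries than in the 3 controls, while the share stays between 23.3% and 27.1%.

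HOTAIR and UCA1 were near the limit of detection. HOTAIR (ENSG00000228630, chromosome 12, 53962308 to 53974956, minus strand) had 4, 11 and 6 counts in the controls, 12, 15 and 18 with decitabine, and 12, 7 and 16 with the combination treatment. Scaled to CPM, control replicate 2 (0.550) lay above decitabine replicate 1 (0.507), so these groups overlapped, as did those of the other comparisons. HOTAIR had a log2 fold change of 0.86 (95% interval -0.07 to 1.78, adjusted p = 0.092) with decitabine and 0.53 (-0.43 to 1.49, adjusted p = 0.31) with the combination treatment. With decitabine, HOTAIR was called as higher without control replicate 2 (1.33, adjusted p = 0.033) and with scaling by total counts alone (1.10, adjusted p = 0.037). Between the treatments it was -0.32 (-1.17 to 0.52, adjusted p = 0.62).

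HOTAIR lies in the HOXC cluster of developmental transcription factors. The nearest tested protein-coding genes were HOXC12, 3352 bases away, and HOXC10, 10109 bases away. HOXC12 had 2 counts over the 3 controls together and between 28 and 37 counts in each treated library, giving ratios to the controls of 37.9 for decitabine (95% counting interval 10.2 to 317) and 46.7 for the combination treatment (12.6 to 391). HOXC10 rose from 0.961 ± 0.252 CPM (SD, n = 3) to 4.42 ± 0.392 CPM and 6.05 ± 1.07 CPM, log2 fold changes of 2.20 and 2.65. HOXC11, which overlaps HOTAIR on the opposite strand, had 41 counts in all 9 libraries and was not tested. Of 13 HOXC cluster genes listed, 9 passed the filter on low counts. HOXC12 passed it through the treated libraries, so no count over the list is read. Beside HOXC12 and HOXC10, the largest changes were in HOXC9 (2.66 and 3.42) and HOXC13-AS (2.31 with decitabine), whereas HOXC6 had values of 0.04 and 0.17 that were not called. HOXC9 was the 1 gene of this list called between the treatments (0.76).

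UCA1 (ENSG00000214049, chromosome 19, 15828206 to 15836328, plus strand) had 10, 12 and 14 counts in the controls, 7, 7 and 8 with decitabine, and 5, 7 and 13 with the combination treatment. The decitabine libraries lay below the controls, and the combination libraries overlapped both groups. The log2 fold change was -0.93 (95% interval -1.79 to -0.07, adjusted p = 0.052) with decitabine, -0.72 (-1.56 to 0.13, adjusted p = 0.12) with the combination treatment and 0.22 (-0.70 to 1.13, adjusted p = 0.77) between them. With decitabine the value was on the other side of the threshold with voom and limma (-0.90, adjusted p = 0.047), without combination replicate 1 (-0.94) and without combination replicate 3 (-0.94). With the combination treatment it was so without combination replicate 3 (-1.17, adjusted p = 0.034). Without that library UCA1 also reversed to -0.23 between the treatments. Differences of this size were not resolved at this depth.

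HULC (ENSG00000285219, chromosome 6, 8435568 to 9294133, plus strand) is known from liver cancer. Its estimated counts were 65, 69 and 51 in the controls, 90, 75 and 89 with decitabine, and 81, 74 and 82 with the combination treatment. In CPM the treated libraries overlapped the controls. HULC gave a log2 fold change of 0.22 (95% interval -0.16 to 0.60, adjusted p = 0.28) with decitabine, 0.16 (-0.22 to 0.54, adjusted p = 0.44) with the combination treatment and -0.06 (-0.43 to 0.31, adjusted p = 0.83) between them. It was called as higher with decitabine under scaling by total counts alone (0.47, adjusted p = 0.03). GENCODE release 44 gives this gene 127 transcripts with 50369 bases of exons, so the value may come from any part of a wide locus.

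PCAT1 (ENSG00000253438, chromosome 8, 126556323 to 127419050, plus strand), a prostate cancer associated transcript, had 7.94, 8.85 and 7.70 CPM in the controls. It had 7.64, 6.22 and 7.79 CPM with decitabine and 5.68, 6.75 and 6.35 CPM with the combination treatment. The combination libraries lay below the controls, and the decitabine libraries overlapped both groups. PCAT1 changed by -0.39 on the log2 scale (standard error 0.14, adjusted p = 0.022) with the combination treatment and -0.18 (95% interval -0.47 to 0.11, adjusted p = 0.26) with decitabine. Between the treatments it was -0.21 (-0.50 to 0.08, adjusted p = 0.32). The call was lost without control replicate 2 (-0.33), without combination replicate 1 (-0.33) and with scaling by total counts alone (-0.16, adjusted p = 0.31), under which the value with decitabine was 0.07. CASC19 overlaps PCAT1 on the opposite strand and rose from 0.531 ± 0.149 CPM to 26.7 ± 3.16 CPM and 16.6 ± 6.05 CPM (SD, n = 3).

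PVT1 (ENSG00000249859, chromosome 8, 127794526 to 128187101, plus strand) had 119.6, 107 and 104 CPM in the controls, 91.2, 97.1 and 104 CPM with decitabine, and 98.9, 112 and 111 CPM with the combination treatment. The groups overlapped in each comparison. PVT1 had log2 fold changes of -0.17 (standard error 0.08, adjusted p = 0.064) with decitabine and -0.04 (0.08, adjusted p = 0.7) with the combination treatment. Between the treatments it was 0.14 (95% interval -0.03 to 0.31, adjusted p = 0.26). The decitabine value was called without control replicate 3 (-0.22), decitabine replicate 3 (-0.23) or combination replicate 1 (-0.18) and without a filter on low counts (-0.22, adjusted p = 0.028). With scaling by total counts alone it was 0.07, and the value with the combination treatment was 0.19 (adjusted p = 0.061). MYC, 51575 bases before PVT1 and the tested protein-coding gene next to PCAT1 as well, fell from 361 ± 14.1 CPM to 201 ± 9.12 CPM and 219 ± 27.2 CPM, log2 fold changes of -0.85 (adjusted p = 9.5e-07) and -0.72 (adjusted p = 4.8e-06).

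The protein-coding genes next to the other members moved in different ways. CENPL and RC3H1 on either side of GAS5 had log2 fold changes of 0.05 and -0.16 with decitabine that were not called. WDR74 beside SNHG1 fell by 0.69 and 0.67 on the log2 scale with decitabine and the combination treatment, and SLC3A2, which starts 51 bases from the SNHG1 gene, had values of -0.32 and -0.04 that were not called. FRMD8, 9249 bases before NEAT1, rose by 0.56 and 0.69 on the log2 scale with decitabine and the combination treatment. SLC35B3, 7 bases before HULC, rose by 0.43 and 0.37. TFAP2A on the far side of HULC fell by 0.26 with decitabine. Beside UCA1, OR10H5 rose with the combination treatment (1.01, adjusted p = 0.041), from a mean of 0.247 CPM to 0.501 CPM, which is near the limit of detection. TPM4 on the other side of UCA1 had values of 0.02 and -0.11. PLGLB1 and RGPD2 beside CYTOR belong to families of near-identical copies, so their values are uncertain. GSDMC and TRIB1 were the far neighbours of PVT1 and PCAT1, 1561095 and 1117920 bases away, and GSDMC rose with decitabine (2.29). Between the treatments GSDMC was lower with the combination treatment (-1.51, adjusted p = 0.041 by edgeR). Its means were 0.168, 0.823 and 0.288 CPM in controls, decitabine and combination libraries, also near the limit of detection.

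The genes whose profile over the 9 libraries was most like that of each lncRNA were found by the root mean square difference of log2 CPM, each gene centred on its own mean, among 18531 other genes. For GAS5 these were PGLS and VEGFA (0.079 each), and for SNHG1 they were TAFAZZIN (0.048) and TOMM6 (0.058). For NEAT1 they were ALPK1 (0.143) and H6PD (0.151), and for CYTOR PROCR (0.053) and CYB5R1 (0.056). ZNF83 (0.148) and EMC3-AS1 (0.156) came closest to MALAT1, HTD2 (0.072) and TIGD2 (0.078) to PCAT1, and MAP3K3 (0.042) and MAPRE3 (0.044) to PVT1. BMP3 (0.076) and PIGL (0.077) came closest to HULC. HLA-L (0.234) and ENSG00000279329 (0.238) came closest to HOTAIR, and NBPF19 (0.163) and ADAM12 (0.170) to UCA1. None of the 20 was another of the 10 lncRNAs. A gene that changes little has small differences from many genes. The root mean square spread of the centred profile was 0.112 for PVT1, 0.163 for HULC, 0.297 for MALAT1 and 0.497 for HOTAIR. These genes were picked as the closest of many, and shared regulation was not tested.

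Levels of different genes were compared per length, as CPM per kilobase of the union of annotated exons in the 3 controls. SNHG1 was highest (30.2 ± 1.55, SD, n = 3), followed by NEAT1 (11 ± 1.75), GAS5 (10.9 ± 1.45), MALAT1 (6.50 ± 1.96), PVT1 (4.33 ± 0.327), CYTOR (0.921 ± 0.0878), PCAT1 (0.442 ± 0.0329), UCA1 (0.143 ± 0.0234), HOTAIR (0.112 ± 0.0583) and HULC (0.0609 ± 0.00968). The libraries of NEAT1 and GAS5, MALAT1 and PVT1, UCA1 and HOTAIR, and HOTAIR and HULC overlapped, so these neighbours in the order were not separated by their spread. The choice of length mattered for genes with many transcript models. Per kilobase of the longest transcript, PVT1 was highest (44.9), ahead of SNHG1 (31.9) and GAS5 (17.1), and HULC (0.859) passed UCA1 (0.222) and HOTAIR (0.144). With the combination treatment NEAT1 stood at 4.15 ± 1.11 per kilobase of exon union, level with PVT1 (4.22 ± 0.288), and MALAT1 at 5.87 ± 0.230.

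**Figure D5:**
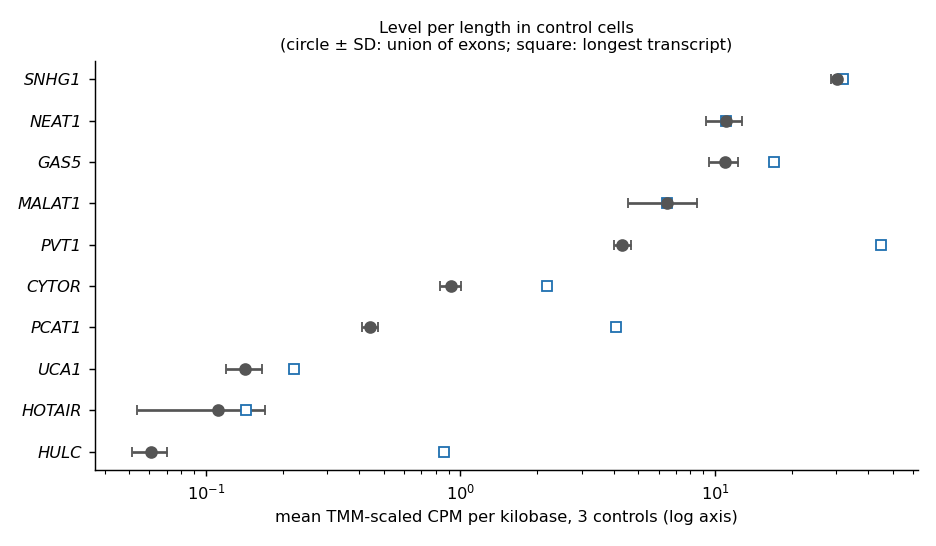
Mean TMM-scaled CPM per kilobase in the 3 controls (horizontal log axis) for each lncRNA. Circles with SD use the union of annotated exons and squares the longest annotated transcript. SNHG1 is highest by the first measure (30.2) and PVT1 by the second (44.9), with HOTAIR and UCA1 low by both.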

How the data were processed

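Total RNA of 9 PC-3 samples was sequenced on the BGISEQ-500 platform. According to the study's methods and the submitters' processing notes, reads were trimmed with Trim Galore 0.6.4, counted with kallisto and related to GRCh38.p13. The authors deposited estimated counts per Ensembl gene, not normalized, which were used here after rounding. Their log2 CPM files were not used. How kallisto was set for strand is not given in the sources used here. Of 60617 identifiers, 60357 were matched to GENCODE release 44, which gave symbols, positions and lengths.

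Genes were filtered with filterByExpr, scaled with TMM and tested with the quasi-likelihood test of edgeR 4.0.16 in R 4.3.3, with 1 mean per group over 9 libraries and Benjamini-Hochberg adjustment over 18532 genes. Standard errors were derived from the F statistic. CPM values use TMM-scaled totals. Counting intervals are exact (95%) and cover counting error only. The fit was tested on simulated data. Pairs of libraries within a group differed by a chi-square per degree of freedom of 5.86 to 23.5, and no library was taken as a duplicate. Deviations of libraries with the same replicate number correlated between -0.017 and 0.233, so the numbers were not taken to pair samples. Shared stretches of 31 bases were counted on both strands of GENCODE transcripts. Alternatives were DESeq2 1.42.0, limma 3.58.1 with voom (the study's method), other scalings and filters, a replicate block, fits of 6 libraries and leaving out each library.

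The 10 genes and all lists were chosen with earlier results of these data known. Named were the 10 genes, MIR4435-2HG and TALAM1, the 3 largest called changes of each list and comparison, the tested protein-coding gene on each side of each lncRNA and the 2 most similar profiles. Some of these are not reported here. Other names were chosen after their values were seen. Of 18 prostate and 50 other cancer lncRNAs listed, 16 and 47 had a row in the files.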

Additional observations from a re-analysis of the deposited data

How the results depend on the processing

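Under the alternatives, each fold change of the 10 genes in the 3 comparisons was recomputed. Leaving out 1 library kept the direction and the side of the threshold in 246 of 270 cases, lost the call in 12, gained one in 9 and reversed the sign in 3. The other alternatives kept both in 225 of 238 cases, lost the call in 3, gained one in 6 and reversed the sign in 4. The reversals were those of PCAT1 (0.07) and PVT1 (0.07) with decitabine and of MALAT1 (0.07) and PVT1 (0.19) with the combination treatment under scaling by total counts alone, of PVT1 with the combination treatment without control replicate 1 (0.02) or combination replicate 1 (0.01; -0.08 to 0.02 over the 9 libraries left out), and of UCA1 between the treatments without combination replicate 3 (-0.23; range -0.23 to 0.47). The cause was not tested beyond the shift of the median that the scaling itself makes. Between the treatments, leaving out 1 library gave between 0 and 3 of the 10 genes called, between 3 and 9 of the 26 snoRNA hosts and between 79 and 409 lncRNA genes, against 2, 8 and 301 with all libraries. The lncRNA count fell to 167 without decitabine replicate 1, 97 without decitabine replicate 2, 123 without combination replicate 1 and 79 without combination replicate 2. Without a filter, 2627 and 2392 lncRNA genes were called against the controls with decitabine and the combination treatment, where the filtered fit called 1796 and 1690. With the replicate number as a block, the counts were 5, 5 and 2 of the 10 genes, UCA1 was called with decitabine (-0.93, adjusted p = 0.049), and no other call of the 10 genes changed. Per kilobase of the longest transcript, the control levels were 4.10 for PCAT1, 44.9 for PVT1, 17.1 for GAS5, 31.9 for SNHG1, 0.859 for HULC, 0.222 for UCA1 and 2.18 for CYTOR. HOTAIR and UCA1, with 4 to 18 counts per library, are limited by depth.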

Other observations

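Other cancer-associated lncRNAs, chosen by name, moved in both directions. Of 50 listed, 40 were tested, and 19 were upregulated and 14 downregulated with decitabine, 17 and 16 with the combination treatment (19 and 11 under scaling by total counts alone). For this list and the next, the shares of all genes were 36.3% higher and 32.5% lower with decitabine. They were 35.9% and 31.3% with the combination treatment, and 7.67% and 8.02% between the treatments. MEG3, an imprinted lncRNA, had 0 counts in the controls and 537 to 857 counts per library with decitabine, at least 559-fold higher when the 3 controls together are set to 3 counts, and at least 438-fold higher with the combination treatment. AFAP1-AS1 rose from 0.447 ± 0.1 CPM (SD, n = 3) to 17.4 ± 1.07 CPM and 13.9 ± 0.908 CPM, and CASC19 had log2 fold changes of 5.64 and 4.96. Between the treatments 3 were higher with the combination treatment, HOTAIRM1 (0.64), MIR31HG (0.60) and DLEU1 (0.54), and 4 were lower, CDKN2B-AS1 (-0.50), HOTTIP (-0.44), TUG1 (-0.43) and OIP5-AS1 (-0.38). Genes such as MEG3 passed the filter on low counts through the treated libraries, so the counts of this list and the next are descriptions. Of 18 prostate cancer lncRNAs listed, 10 were tested, PCAT1 included. With decitabine 4 were upregulated and 0 downregulated, led by HAGLR (2.80), PCAT19 (2.36) and ARLNC1 (2.36), and with the combination treatment 6 and 1 (6 and 0 by total counts), led by HAGLR (2.54), ARLNC1 (2.5) and PCAT19 (2.39). PCAT7 was the 1 gene called between the treatments (-0.47).

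For lists of RNA turnover genes and of partners of these lncRNAs, the balance of calls depended on the scaling, and for some lists its direction did. Of all genes 32.5% fell and 36.3% rose with decitabine, and 31.3% fell and 35.9% rose with the combination treatment. Between the treatments 15.7% of all genes were called, 7.67% as higher with the combination treatment and 8.02% as lower. Among the calls over all genes, 52.7% were higher with decitabine and 53.4% with the combination treatment. By total counts alone these were 70.3% and 69.3%. Of 20 nuclear speckle genes 12 fell and 1 rose with each treatment, but 7 fell and 3 rose with decitabine, and 5 fell and 5 rose with the combination treatment, under scaling by total counts alone. The splicing factors SRSF3 (-0.99 and -1.0), SRSF1 (-0.90 and -0.96), SRSF2 (-0.89 with decitabine) and SRSF7 (-0.94 with the combination treatment) led. Between the treatments U2AF1 (0.55), SNRNP70 (0.29) and RBM25 (-0.24) were called. Of 18 factors of nonsense-mediated decay, which degrades spliced snoRNA host RNAs, 9 fell and 2 rose with decitabine and 13 fell and 2 rose with the combination treatment, against 5 and 7, and 5 and 3, by total counts. SMG9 (-0.66 and -1.05), EIF4A3 (-0.63 and -0.62) and MAGOHB (-0.62 and -0.59) led, and between the treatments 4 were lower with the combination treatment, among them XRN1 (-0.92), UPF2 (-0.39) and SMG9 (-0.39), and 1 was higher, UPF3B (0.37).

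Of 20 nuclear RNA turnover genes, mostly subunits and cofactors of the exosome, 15 fell and 3 rose with decitabine and 13 fell and 3 rose with the combination treatment, against 11 and 4, and 7 and 5, by total counts. EXOSC10 (-1.10 and -1.17), EXOSC8 (-1.08 and -0.98), METTL16 (-0.91 with decitabine) and MTREX (-0.72 with the combination treatment) led. Between the treatments 3 were higher, EXOSC5 (0.40), EXOSC4 (0.33) and EXOSC7 (0.30), and ZFC3H1 was lower (-0.38). Over all genes 7.67% were higher and 8.02% lower in that comparison. Of 15 genes of the chromatin-modifying complexes PRC2 and LSD1-CoREST, 8 fell and 0 rose with each treatment, against 6 and 6, and 5 and 4, by total counts, led by PHF19 (-1.39 and -1.13), EZH1 (-1.32 and -1.34) and HDAC1 (-0.96 and -1.04).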
